A study of Mus musculus with 13 samples.

Results

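Toll-like receptors (TLRs) and the proteins that help the lipopolysaccharide receptor recognise its ligand were followed in the immune cells of irradiated mouse tumors. The members are 10 genes of an nCounter panel of 561 genes, chosen by name and function but with earlier results of these data known. They are the surface receptors Tlr1, Tlr2, Tlr4 and Tlr5, the endosomal receptors Tlr3, Tlr8 and Tlr9, and the accessory proteins Cd14, Ly96 and Ly86. The tumors were flank grafts of CT26, a mouse colon carcinoma line, in young female BALB/c hosts, and radiotherapy (RT) was directed at the tumor alone. The irradiated groups received 2 Gy × 5 or a single 7.5 Gy × 1, and each was sampled at the early (T2), middle (T7), late (T14) and progression (T21) phases, which are 2, 7, 14 and 21 days after the start of RT. The T2 sample of the 2 Gy × 5 group was taken before that course was complete. Tumors given 0 Gy were sampled at the same 4 phases, and 1 baseline sample was taken before RT. CD45+ cells were isolated magnetically and their RNA was counted, with 1 sample per condition and 13 in all. The study names 3 mice per group, and whether their RNA was pooled is not given in the sources used here.

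TLRs are pattern recognition receptors that carry a leucine-rich ectodomain and a cytoplasmic TIR domain. The surface members bind bacterial lipids and proteins, while the endosomal members bind nucleic acids, which can come from microbes or from dying cells. Most of them signal through the adaptor MyD88 to NF-kB and cytokine genes, TLR3 uses the adaptor TRIF, and TLR4 uses both. In tumors these receptors are carried mainly by monocytes, macrophages, neutrophils and dendritic cells, with TLR9 also on B cells.

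Total counts per sample ranged from 166307 to 675847, and 345 to 442 genes per sample were above their own background. A gene was kept when its mean count exceeded the mean background threshold, which was true of 415 genes and of 10 of the 10 members. Of the members, 8 were above background in all 13 samples, Tlr3 in 11 and Tlr5 in 8. Ptprc, which encodes CD45, was present in every sample at normalized counts of 200 to 1873. The summed level of 9 genes of CD45-negative cells (endothelium, fibroblasts and epithelium) was 1738 to 3476 in 2 Gy × 5 samples, 2126 to 7766 in 7.5 Gy × 1 samples, 1828 to 5280 in 0 Gy samples and 5017 at baseline. The samples were read in 3 runs: baseline and T2 in run 3, T7 together with T14 after 2 Gy × 5 in run 1, and the remaining T14 and all T21 samples in run 2. The sum of the positive controls was 10005 to 12510 in run 2, against 20262 to 32159 in the other runs. A phase that crosses runs therefore cannot be told apart from its run. In bulk RNA, fewer cells of a type and less RNA per cell cannot be told apart either.

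Promoter sequences are shown for genes whose levels moved together over the samples (Tlr1, Tlr2, Tlr8 and Ly86) and for Tlr3, whose level did not follow them. They are RefSeq windows on GRCm38.p6 from 250 bases before to 50 after an annotated start, printed in the direction of transcription, and 7 of the 10 members have such a window here. Tlr1 has a pair of them, of which the one with a match is shown. Capitals mark text matches on either strand to GAGGAA, the core of sites bound by the myeloid factor PU.1, in Tlr1 and Tlr8, and to the NF-kB pattern (GGGA and CC with any 4 bases between them) in Tlr2 and Tlr3.
Tlr1, chr5:64933509-64933808, minus strand: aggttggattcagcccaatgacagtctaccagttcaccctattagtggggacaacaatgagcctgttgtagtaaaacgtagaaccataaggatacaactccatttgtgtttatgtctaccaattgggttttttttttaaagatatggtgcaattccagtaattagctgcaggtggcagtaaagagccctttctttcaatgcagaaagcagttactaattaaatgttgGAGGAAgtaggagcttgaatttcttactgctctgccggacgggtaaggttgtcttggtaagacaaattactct
Tlr2, chr3:83841559-83841858, minus strand: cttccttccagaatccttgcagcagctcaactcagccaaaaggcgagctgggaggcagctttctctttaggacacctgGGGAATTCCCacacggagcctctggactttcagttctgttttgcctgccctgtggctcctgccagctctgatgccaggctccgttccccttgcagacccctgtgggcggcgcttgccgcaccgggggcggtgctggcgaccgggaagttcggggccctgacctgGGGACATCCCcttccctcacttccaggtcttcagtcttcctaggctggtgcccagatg
Tlr8, chrX:167264280-167264579, minus strand: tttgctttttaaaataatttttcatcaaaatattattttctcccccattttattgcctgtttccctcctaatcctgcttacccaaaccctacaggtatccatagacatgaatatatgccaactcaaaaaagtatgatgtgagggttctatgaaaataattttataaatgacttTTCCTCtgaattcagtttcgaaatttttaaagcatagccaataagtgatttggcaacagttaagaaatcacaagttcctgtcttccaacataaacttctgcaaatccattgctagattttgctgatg
Ly86, chr13:37345095-37345394, plus strand: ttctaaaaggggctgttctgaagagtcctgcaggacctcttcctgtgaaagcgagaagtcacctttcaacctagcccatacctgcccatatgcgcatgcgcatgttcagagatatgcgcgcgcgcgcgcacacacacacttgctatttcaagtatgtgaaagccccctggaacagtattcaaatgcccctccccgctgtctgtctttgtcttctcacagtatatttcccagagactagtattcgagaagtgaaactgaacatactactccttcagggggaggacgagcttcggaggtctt
Tlr3, chr8:45410331-45410630, minus strand: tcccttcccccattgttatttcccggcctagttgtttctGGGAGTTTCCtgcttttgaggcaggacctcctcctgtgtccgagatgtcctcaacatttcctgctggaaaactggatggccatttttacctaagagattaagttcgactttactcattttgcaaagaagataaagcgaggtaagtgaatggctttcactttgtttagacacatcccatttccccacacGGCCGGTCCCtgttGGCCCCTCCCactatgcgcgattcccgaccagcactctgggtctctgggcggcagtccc

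The PU.1 core occurred in 28.3% of all 32851 promoter windows of this length, and among the members in those of Tlr1, Tlr8 and Tlr9. The NF-kB pattern occurred in 20.7% of all windows, and among the members in those of Tlr2, Tlr3 and Tlr5. The interferon-stimulated response element (GAAA, any 2 bases, GAAA) occurred in 3.44% of all windows and in 0 of the 8 member windows. No marked match overlaps another kind. Of the genes that moved together, Tlr1 and Tlr8 held one pattern, Tlr2 the other, and the Ly86 window neither, so the matches did not sort the genes by their levels. A text match is not a bound site.

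Tlr1 and Tlr2, whose products pair to bind triacylated bacterial lipopeptides, shared their highest sample (2 Gy × 5 at T7) and their lowest (7.5 Gy × 1 at T2). They parted at T14, where Tlr1 was 2.51-fold and Tlr2 1.08-fold the 0 Gy level after 2 Gy × 5, across runs. At T21, within run 2, the same folds were 4.30 and 3.74. Normalized counts of Tlr1 at T2, T7, T14 and T21 were 54.2, 261, 221 and 116 in 2 Gy × 5 samples, 26.5, 242, 113 and 51.6 in 7.5 Gy × 1 samples, and 38.4, 156, 88.1 and 27.0 in 0 Gy samples, with 64.8 at baseline. The highest Tlr1 levels were those of the 3 T7 samples and of the 2 Gy × 5 sample of T14, which are all the samples of run 1. The 2 Gy × 5 sample was above both others at every phase. Those of Tlr2 were 129, 361, 222 and 262 in 2 Gy × 5 samples, 55.5, 341, 239 and 128 in 7.5 Gy × 1 samples, and 75.2, 263, 206 and 70.1 in 0 Gy samples, with 118 at baseline. At T14 the 3 Tlr2 levels lay close together, and at T21 the 2 Gy × 5 sample stood alone. The probe for Tlr1 was not checked here against its close paralog Tlr6.

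Tlr4, the signalling chain of the lipopolysaccharide receptor, had a narrower range. Its normalized counts were 219, 402, 401 and 238 in 2 Gy × 5 samples, 179, 442, 158 and 169 in 7.5 Gy × 1 samples, and 176, 259, 178 and 123 in 0 Gy samples at the 4 phases in order, with 148 at baseline. The 2 Gy × 5 level was as high at T14 as at T7, and both of these samples were read in run 1, while the 7.5 Gy × 1 sample of T14 was below the 0 Gy sample. Tlr5, the receptor of flagellin, had few counts (6 to 43 raw counts per sample). Its normalized counts were 6.2, 57.4, 24.4 and 19.1 in 2 Gy × 5 samples, 7.7, 35.2, 33.3 and 18.8 in 7.5 Gy × 1 samples, and 12.3, 15.3, 36.6 and 14.8 in 0 Gy samples, with 7.9 at baseline. At this depth no neighbours in the order of its levels lay apart beyond counting error.

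Among the endosomal receptors, Tlr8, whose human counterpart senses single-stranded RNA, resembled Tlr1. Normalized Tlr8 counts over the phases were 80.6, 282, 206 and 104 in 2 Gy × 5 samples, 59.8, 303, 128 and 65.7 in 7.5 Gy × 1 samples, and 55.2, 169, 123 and 39.1 in 0 Gy samples, with 106 at baseline. Every irradiated sample was above the 0 Gy sample of its phase, by little at T2 and T14 after 7.5 Gy × 1. Tlr9, the sensor of unmethylated CpG DNA, was highest in the T7 samples and then in the 2 Gy × 5 sample of T14, which are all the samples of run 1. Its normalized counts were 30.6, 222, 79.6 and 31.4 in 2 Gy × 5 samples, 33.3, 111, 24.6 and 14.1 in 7.5 Gy × 1 samples, and 43.0, 109, 38.2 and 22.9 in 0 Gy samples, against 26.4 at baseline. Its T7 level after 2 Gy × 5 stood apart from that after 7.5 Gy × 1, which lay beside that of 0 Gy. Tlr3, the sensor of double-stranded RNA, stayed low, at 12.5, 22.7, 17.6 and 23.2 in 2 Gy × 5 samples, 21.4, 20.9, 37.7 and 29.7 in 7.5 Gy × 1 samples, and 13.8, 10.2, 21.6 and 24.3 in 0 Gy samples, with 17.2 at baseline. The T7 samples were not its highest, and no neighbours in its order lay apart.

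**Figure D1:**
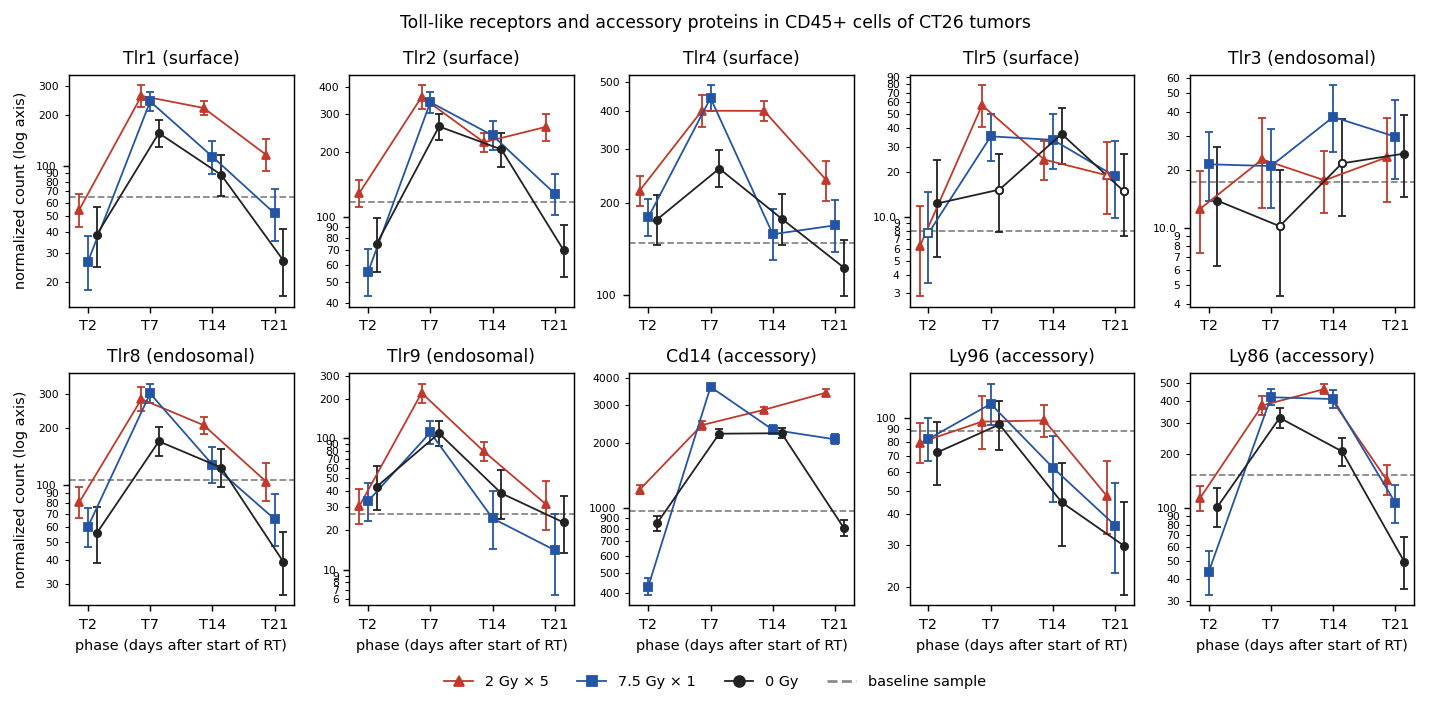
Normalized counts (log axis) of the 10 genes by phase in 2 Gy × 5, 7.5 Gy × 1 and 0 Gy samples, 1 sample per point, with 95% counting intervals as bars, the baseline sample as a dashed line and open points where a count was not above its own background. Cd14 ranges from 431 to 3650, and 8 of the 10 genes are at least 2-fold above baseline at T7 in both irradiated groups, while Tlr3 and Ly96 are not.

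Cd14, which hands lipopolysaccharide to the TLR4 complex and is a marker of monocytes, had the most counts behind it (504 to 5025 raw counts). Its normalized counts were 1214, 2424, 2857 and 3436 in 2 Gy × 5 samples, 431, 3650, 2307 and 2082 in 7.5 Gy × 1 samples, and 847, 2212, 2223 and 807 in 0 Gy samples, with 964 at baseline. Each phase after T2 was higher than the last in the 2 Gy × 5 group, whereas the 7.5 Gy × 1 level was lowest of all samples at T2 and highest of all at T7. Of its 12 pairs of neighbouring levels, 7 lay apart beyond counting error. Ly86 encodes MD-1, the partner of the TLR4-like receptor CD180. It reached 113, 376, 465 and 144 in 2 Gy × 5 samples, 43.6, 418, 409 and 106 in 7.5 Gy × 1 samples, and 101, 320, 208 and 49.9 in 0 Gy samples, against 152 at baseline. Its levels stayed high at T14 in both irradiated groups and were low again in all 3 groups at T21.

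Ly96 encodes MD-2, the subunit of the TLR4 complex that binds lipid A. Its normalized counts were 79.2, 96.7, 97.8 and 47.8 in 2 Gy × 5 samples, 82.0, 114, 62.3 and 36.0 in 7.5 Gy × 1 samples, and 72.1, 94.1, 44.9 and 29.7 in 0 Gy samples, with 88.6 at baseline. The 5 lowest samples are those read in run 2. Ly96 was the 1 member of 10 whose run 2 samples all lay outside the range of the others, as did 57 of the 415 genes kept. The step of Ly96 down from the other runs to run 2 therefore cannot be told apart from the run. Run 1 also stood apart: its 4 samples were the highest of all for Tlr1, Tlr4, Tlr8, Tlr9 and Ly96. The share of all genes with that order was not counted, and it cannot be told apart from the run either. Within run 2 the level went from 62.3 at T14 to 36.0 at T21 after 7.5 Gy × 1 (43 and 23 raw counts). After 0 Gy it went from 44.9 to 29.7 (27 and 22 raw counts), and neither step was tested.

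The first comparison set each irradiated sample against the 0 Gy sample of its phase, to ask what RT added at that time. With 1 sample on each side no test is possible, and a gene was called at a 2-fold difference, or at a bound of 2-fold where the lower sample was at background. After 2 Gy × 5, the members called higher numbered 0 at T2 (2.65% of all 415 genes were), 2 at T7 (16.6% of genes), 5 at T14 (14.5% of genes) and 5 at T21 (29.9% of genes), and 0 were called lower at T2, T7, T14 or T21 (5.06%, 1.45%, 5.54% and 0.241% of genes). After 7.5 Gy × 1 they numbered 0 at T2 (3.13% of genes), 0 at T7 (19.5%), 0 at T14 (7.71%) and 2 at T21 (12%), with 1 called lower, Ly86 at T2 (14.9% of genes, and 0 members and 2.41% of genes on the pan-leukocyte scale). At T7 the genes called after 2 Gy × 5 were Tlr9, at 2.03-fold (95% counting interval 1.55 to 2.68), and Tlr5, at least 2.58-fold higher.

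At T14 they were Tlr1 at 2.51-fold (1.88 to 3.41), Tlr4 at 2.26-fold, Tlr9 at 2.08-fold, Ly96 at 2.18-fold and Ly86 at 2.24-fold. At that phase alone, the 2 Gy × 5 sample and the 0 Gy sample were read in different runs, and the run's part in these values was not tested. The T21 calls were made within 1 run. Tlr1 was 4.30-fold (2.62 to 7.40), Cd14 4.26-fold (3.90 to 4.67), Tlr2 3.74-fold (2.74 to 5.18), Ly86 2.87-fold (1.96 to 4.30) and Tlr8 2.66-fold (1.71 to 4.22) the 0 Gy level. After 7.5 Gy × 1 at T21, Cd14 was 2.58-fold (2.34 to 2.85) and Ly86 2.13-fold (1.41 to 3.27). All of these T21 folds are against a 0 Gy sample that held the lowest level of Ptprc, at 810 after 2 Gy × 5, 427 after 7.5 Gy × 1 and 200 after 0 Gy. The summed level of 10 monocyte and macrophage genes was also the lowest of that phase in the 0 Gy sample, at 3292, 2684 and 1294 in the same order, and that of 10 neutrophil and myeloid-derived suppressor cell (MDSC) genes was 27749, 16067 and 6010.

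**Figure D2:**
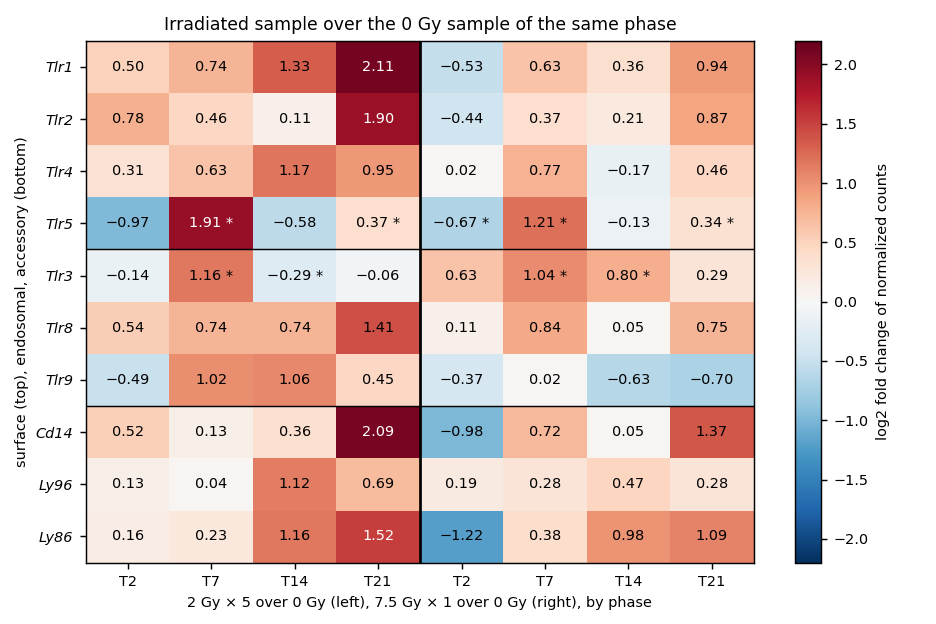
Log2 fold change of normalized counts for each irradiated sample over the 0 Gy sample of its phase, with 2 Gy × 5 in the left 4 columns and 7.5 Gy × 1 in the right 4, and rows grouped as surface, endosomal and accessory. A star marks a value with at least 1 sample at background, where the fold is not a measured ratio. The T21 column of 2 Gy × 5 reaches 2.11 for Tlr1 and 2.09 for Cd14, and the T2 column of 7.5 Gy × 1 goes down to -1.22 for Ly86.

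The members did not behave alike at T2. In the 2 Gy × 5 sample Cd14 was 1.43-fold (1.30 to 1.58) and Tlr2 1.72-fold (1.25 to 2.40) the 0 Gy level, whereas in the 7.5 Gy × 1 sample Cd14 was 0.51-fold (0.45 to 0.57) and Ly86 0.43-fold (0.29 to 0.63). The summed neutrophil and MDSC genes were 9954 in the 2 Gy × 5 sample, 1472 in the 7.5 Gy × 1 sample and 2815 in the 0 Gy sample. The summed genes of CD45-negative cells ran the other way, at 3476, 7766 and 5280. The part of these markers in the T2 values was not tested.

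The order of surface and endosomal receptors depended on the reference sample and, for 7.5 Gy × 1 against 0 Gy, on the handling of low counts. The median log2 fold change of the 4 surface receptors exceeded that of the 3 endosomal ones in 3 of the 8 comparisons with 0 Gy and in 10 of the 12 with baseline, which share the 1 baseline sample. After 2 Gy × 5 the surface median was 0.41, 0.69, 0.64 and 1.43 at T2, T7, T14 and T21, the endosomal median was -0.14, 1.02, 0.74 and 0.45, and that of the 3 accessory genes was 0.16, 0.13, 1.12 and 1.52. Over all 415 genes the median was -0.01, 0.42, 0.35 and 0.71 at those phases. After 7.5 Gy × 1 the surface median was -0.49, 0.70, 0.04 and 0.67, the endosomal median 0.11, 0.84, 0.05 and 0.29, and the median of all genes -0.01, 0.48, 0.24 and 0.21. With 20 added to each normalized count, the order after 7.5 Gy × 1 was reversed at T7 (surface 0.61, endosomal 0.44) and at T14 (0.06 and 0.05). The other comparisons with 0 Gy kept their order. Within the endosomal group the 3 genes diverged: at T14 after 7.5 Gy × 1, Tlr9 had a log2 fold change of -0.63, Tlr8 of 0.05 and Tlr3 of 0.80.

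Across phases, 7 of the 10 members (Tlr1, Tlr2, Tlr4, Tlr8, Cd14, Ly96 and Ly86) were above 0 Gy at all 4 phases after 2 Gy × 5, as were 29.9% of all genes. After 7.5 Gy × 1 the members above 0 Gy at all phases were 3 (Tlr3, Tlr8 and Ly96), against 21.7% of genes. Without T14 the numbers were 7 (38.3% of genes) and 4 (25.5% of genes). These counts take the direction alone, and some differences after 2 Gy × 5 lay within counting error. Examples are Ly96 at T7 (1.03-fold, 0.72 to 1.46) and Tlr2 at T14 (1.08-fold, 0.88 to 1.33), while Cd14 was above 0 Gy beyond counting error at each phase. With samples scaled to the median of ratios in place of the housekeeping probes, 3 members (Tlr1, Tlr4 and Tlr8) were above 0 Gy at all phases after 2 Gy × 5, beside 15.2% of genes. With samples scaled to 9 pan-leukocyte genes, among them Ptprc, 0 members were, beside 3.61% of genes. The shared direction was thus measured on the housekeeping scale and not on the pan-leukocyte scale.

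The regimens were then tested over the 4 phases with edgeR's quasi-likelihood test on raw counts, with terms for phase and group, so that the phases stand in for replicates. No member passed at an adjusted p of 0.05 in any regimen contrast. For 2 Gy × 5 against 0 Gy, 0% of genes passed (0 of 415, with 70 at an unadjusted p under 0.05, and 40 by DESeq2). Tlr1 came nearest, with a log2 difference of 0.80 ± 0.25 (SE, adjusted p = 0.092 by edgeR), followed by Tlr8 at 0.50 ± 0.22 (adjusted p = 0.26 by edgeR), and Tlr1 was the 1 member among the 40 genes called by DESeq2. The other members lay between -0.25 ± 0.34 for Tlr3 and 0.45 ± 0.25 for Tlr4. Tlr1 was higher in 4 of 4 phases, by 1.17 ± 0.72 on average on the log2 scale of normalized counts (SD over 4 phases), with an exact two-sided sign-flip permutation p of 0.125, the smallest that 4 phases allow. Tlr2, Tlr4, Tlr8, Cd14, Ly96 and Ly86 had the same p by that test, as did Tlr3, Tlr8 and Ly96 for 7.5 Gy × 1 against 0 Gy.

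For 7.5 Gy × 1 against 0 Gy, 1.2% of genes passed in edgeR and 0 members, whose log2 differences ran from -0.56 ± 0.32 for Tlr9 to 0.45 ± 0.34 for Tlr3. Between the regimens, 2 Gy × 5 against 7.5 Gy × 1, 0 members and 0% of genes passed in edgeR (26 genes had an unadjusted p under 0.05, and DESeq2 called 1). The members farthest apart were Tlr9 at 0.81 ± 0.31, Tlr3 at -0.70 ± 0.32 and Tlr1 at 0.67 ± 0.24 (adjusted p = 0.67 by edgeR for each of them). Sample by sample, 4 members were at least 2-fold higher after 2 Gy × 5 than after 7.5 Gy × 1 at T2 (Tlr1, Tlr2, Cd14 and Ly86, beside 13.7% of genes, with 4.34% lower), 0 at T7 (0.723%), 2 at T14 (Tlr4 and Tlr9, beside 9.64%) and 3 at T21 (Tlr1, Tlr2 and Tlr9, beside 17.3%). The T21 calls were 0 by the median of ratios (3.37% of genes), by total counts (3.61%) and on the pan-leukocyte scale (1.69%), where the T2 calls were 0 as well (5.78%). Tlr3 at T14 was the 1 member called lower, at 0.47-fold (0.27 to 0.82), beside 12.5% of genes. Tlr9 was 2.00-fold (1.54 to 2.60, just under the call) as high after 2 Gy × 5 as after 7.5 Gy × 1 at T7, both read in run 1, and 3.23-fold (1.95 to 5.70) at T14, across runs. At T21, within run 2, the ratio was 2.23-fold with an interval of 1.00 to 5.48 from 23 and 9 counts, and at T2 it was 0.92-fold (0.58 to 1.45). Tlr1 was above the 7.5 Gy × 1 sample at all 4 phases, by 1.08-fold to 2.25-fold, as were 7.71% of all genes.

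**Figure D3:**
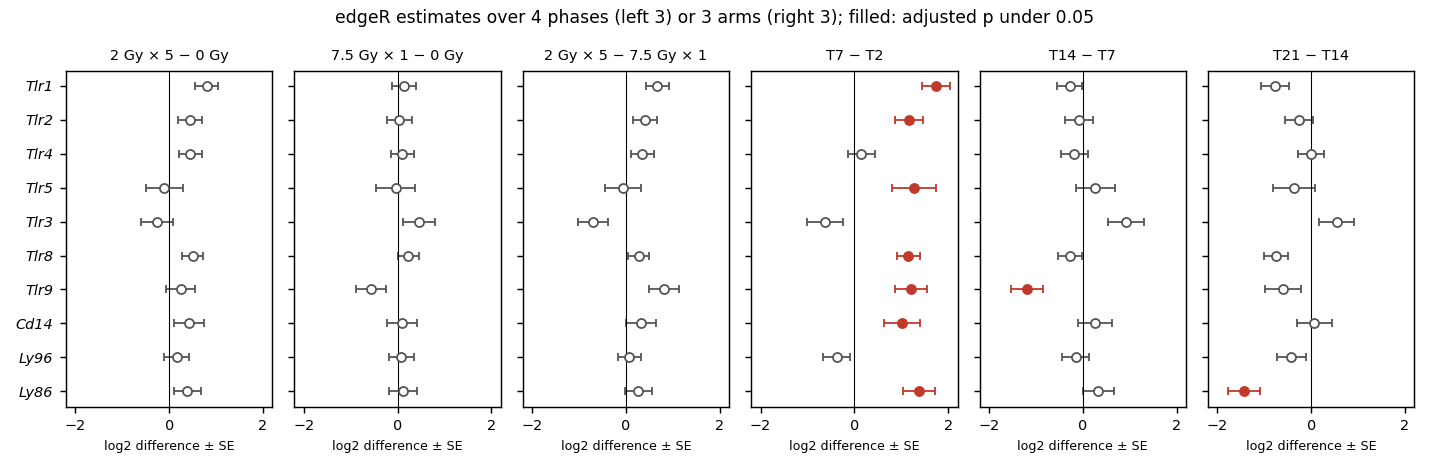
Log2 differences with SE from edgeR for the 10 genes, for 3 regimen contrasts with the 4 phases as replicates and 3 phase steps with the 3 groups as replicates. Filled points have an adjusted p under 0.05: 0 in the regimen contrasts, 7 at T7 against T2, 1 (Tlr9) at T14 against T7 and 1 (Ly86) at T21 against T14.

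More members passed between phases than between regimens. At T7 against T2, 7 of the 10 members rose in edgeR (27.2% of all genes rose and 26% fell): Tlr1 by 1.74 ± 0.29 (adjusted p = 0.00085), Ly86 by 1.38 ± 0.34, Tlr5 by 1.28 ± 0.47, Tlr9 by 1.20 ± 0.34, Tlr2 by 1.17 ± 0.30, Tlr8 by 1.15 ± 0.25 and Cd14 by 1.02 ± 0.38 (adjusted p = 0.032), on the log2 scale with SE. Tlr4 (0.15 ± 0.28), Tlr3 (-0.63 ± 0.39) and Ly96 (-0.38 ± 0.29) did not pass. With the housekeeping probes as the scale, the median log2 difference of all genes at this step was 0.78, 183 genes rose and 21 fell, and 8 members rose, Tlr4 among them. All T2 samples were read in run 3 and all T7 samples in run 1, so the step cannot be told apart from the run. Leaving out the 2 Gy × 5, 7.5 Gy × 1 or 0 Gy samples left 5, 4 or 6 members called, beside 40%, 22.9% and 48.7% of genes in either direction, and Tlr1, Tlr8 and Ly86 were called each time.

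Most members were above the baseline sample at T7, with or without irradiation. At least 2-fold higher were 8 members after 2 Gy × 5 (37.3% of genes, with 2.89% lower), 8 after 7.5 Gy × 1 (41.7% of genes) and 5 after 0 Gy (18.8% of genes). Tlr9 was 8.39-fold (5.24 to 14.15), 4.20-fold (2.58 to 7.17) and 4.13-fold (2.52 to 7.10) the baseline level in that order of groups, and Tlr1 4.03-fold, 3.74-fold and 2.41-fold. The 5 genes that were called without irradiation, Tlr1, Tlr2, Tlr9, Cd14 and Ly86, were also called in both irradiated groups. Tlr4 and Tlr8 reached 2.71-fold and 2.67-fold after 2 Gy × 5 and 2.99-fold and 2.86-fold after 7.5 Gy × 1, but 1.75-fold and 1.60-fold after 0 Gy. These comparisons share the 1 baseline sample, which was read in another run than the T7 samples.

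At T14 the members at least 2-fold above baseline numbered 6 after 2 Gy × 5 (21% of genes), 5 after 7.5 Gy × 1 (20.5%) and 2 after 0 Gy (12.3%), and at T21 they numbered 2 (17.3%), 1 (8.19%) and 0 (4.58%). Cd14 was in every one of these sets except 0 Gy at T21, with 3.56-fold (3.28 to 3.88) after 2 Gy × 5 at T21. At least 2-fold below baseline at T21 were 4 members after 0 Gy (32% of genes), Tlr1, Tlr8, Ly96 and Ly86, and 1 after 7.5 Gy × 1 (24.8% of genes), Ly96. By the median of ratios or on the pan-leukocyte scale 0 members were called lower in either group (11.3% and 4.58% of genes after 0 Gy). At T2, within run 3, Tlr1, Tlr2, Cd14 and Ly86 were at least 2-fold below baseline after 7.5 Gy × 1 (4 members, beside 22.9% of genes, but 0 members and 2.41% of genes on the pan-leukocyte scale), and 0 members were after 2 Gy × 5 (11.8%) or 0 Gy (5.3%).

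From T7 to T14, Tlr9 was the 1 member that fell in edgeR (log2 difference -1.19 ± 0.34, adjusted p = 0.045, with 3.86% of genes lower and 4.82% higher). The call was lost when any 1 of the 3 groups was left out. Within run 1, the 2 Gy × 5 sample of T14 held 0.36-fold (0.28 to 0.45) the Tlr9 level of T7, and the members called lower there were Tlr5 and Tlr9 (18.6% of genes were lower and 2.89% higher). Over the same interval, and in the same run, Cd14 was 1.18-fold (1.11 to 1.25), Ly86 1.24-fold (1.07 to 1.43) and Tlr4 1.00-fold (0.87 to 1.15).

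From T14 to T21, Ly86 fell (-1.44 ± 0.34, adjusted p = 0.036 by edgeR, with 3.61% of genes lower and 1.93% higher), a call that was lost without the 2 Gy × 5 sample of T14, without the 2 Gy × 5 group and without the 0 Gy group. On the housekeeping scale, where the median of all genes moved by -0.43 and 56 genes fell and 0 rose, Tlr1 and Tlr8 fell as well. Both steps within run 2 had the same direction for Ly86: T21 held 0.26-fold (0.20 to 0.34) the T14 level after 7.5 Gy × 1 and 0.24-fold (0.16 to 0.35) after 0 Gy. In those 2 steps 2 members (Tlr1 and Ly86, 32.8% of genes) and 5 members (Tlr1, Tlr2, Tlr8, Cd14 and Ly86, 32% of genes) were called lower, and 0 members were in either step on the pan-leukocyte scale (5.54% and 0.964% of genes). Cd14 differed between them, at 0.90-fold (0.84 to 0.97) after 7.5 Gy × 1 and 0.36-fold (0.33 to 0.40) after 0 Gy, and the difference was not tested.

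Over the 13 samples Tlr1, Tlr2, Tlr8 and Ly86 moved closely together, Cd14 in part with them, and Tlr3 did not. These correlations are of log2 normalized counts, describe samples that share housekeeping factors and runs, and carry no test. Tlr1 had a Pearson r of 0.97 with Tlr8, 0.95 with Tlr2 and 0.94 with Ly86, and after the mean of each run was subtracted these were 0.93, 0.95 and 0.87. With Tlr1, Tlr2, Tlr8 and Ly86, Cd14 had r of 0.86, 0.93, 0.75 and 0.82 (0.87, 0.87, 0.73 and 0.74 after subtraction). Ly96 had 0.54, 0.35, 0.67 and 0.53 with the same genes (0.81, 0.75, 0.86 and 0.80 after subtraction). Tlr9 had r from 0.40 with Cd14 to 0.84 with Tlr4, leaving Tlr3 aside, and after subtraction 0.04 with Cd14 and 0.24 with Tlr4. Tlr3 had r between -0.49 (Ly96) and 0.48 (Tlr5) with the others. Among the parts of the lipopolysaccharide receptor, Tlr4 had r = 0.68 with Ly96 (0.37 after subtraction) and 0.63 with Cd14 (0.67), and Cd14 had r = 0.12 with Ly96 (0.59).

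The 3 genes most like Tlr1 over 13 samples were Entpd1 (r = 0.98), Ptprc (0.98) and Cybb (0.97). For Tlr2 they were Il10ra (0.96), Cybb (0.96) and Tlr1 (0.95), and for Tlr8 Il10rb (0.97), Tlr1 (0.97) and Ptprc (0.96). Ly86 was most like Ebi3, Pou2f2 and Cybb (0.96 each), and after subtraction of run means most like Cd74 (0.98), the invariant chain of MHC class II. Tlr4 was most like Litaf (0.96), Il13ra1 (0.94) and Arhgdib (0.93), and after subtraction Cebpb (0.93), a transcription factor of myeloid cells. Cd14 was most like Cxcr2 (0.97), a chemokine receptor of neutrophils, Itgam (0.96) and Ifitm1 (0.96). Tlr9 was most like Tgfbi (0.94), Ikbkb (0.91) and Tgfb1 (0.91), Ly96 like Jak1 (0.97), Lilrb4a (0.95) and Ube2l3 (0.95), and Tlr5 like Casp8 (0.88), Cd74 (0.87) and Tnfrsf13b (0.87). Tlr3 had the weakest likeness, with Ifngr2 (0.80), Psmb9 (0.78) and H2-K1 (0.77). After subtraction of run means the leading genes were Fcer1g (0.96) for Tlr1, Tlr1 (0.95) for Tlr2, Itgb2 (0.95) for Tlr8, Entpd1 (0.95) for Cd14, Map4k1 (0.89) for Ly96, Runx1 (0.85) for Tlr9, Tgfbi (0.82) for Tlr5 and Casp8 (0.79) for Tlr3.

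The members were also set against the summed markers. With the monocyte and macrophage genes Tlr1 had r = 0.97, Tlr8 0.96, Ly86 0.96 and Tlr2 0.94, and after subtraction of run means 0.90, 0.91, 0.91 and 0.88. With Ptprc alone the same genes had 0.98, 0.96, 0.92 and 0.94 (0.93, 0.91, 0.81 and 0.91 after subtraction). With the neutrophil and MDSC genes Cd14 had r = 0.93 and, after subtraction, 0.81, and Tlr4 had 0.74 and 0.79. Tlr2, Tlr1, Ly86 and Tlr8 had 0.84, 0.82, 0.73 and 0.71 with them (0.56, 0.55, 0.39 and 0.40 after subtraction). With the monocyte and macrophage genes Cd14 had 0.84 and Tlr4 0.79 (0.79 and 0.45 after subtraction), and both lists hold Itgam. Against the NK cell genes Tlr8 had 0.94 and Ly86 0.90 (0.86 and 0.83 after subtraction). Tlr9 had r = 0.81 with the dendritic cell genes, 0.79 with the NK cell genes, 0.77 with Ptprc and 0.74 with the monocyte and macrophage genes (0.45, 0.43, 0.39 and 0.34 after subtraction). It had 0.20 with the B cell genes, of which 1 to 6 of 8 were above background per sample. Ly96 had 0.90 with the dendritic cell genes, 0.71 with the NK cell genes, 0.58 with Ptprc and 0.52 with the monocyte and macrophage genes. After subtraction these lay close together, at 0.82, 0.81, 0.84 and 0.77. Tlr3 had r = 0.02 with both Ptprc and the monocyte and macrophage genes (0.28 and 0.20 after subtraction). With the dendritic cell genes it had -0.20 and, after subtraction, 0.58. These values rest on 8 to 31 raw counts of Tlr3 per sample, where counting error is large. The part of leukocyte content in the members' levels was not tested beyond the scaling to pan-leukocyte genes given above.

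**Figure D4:**
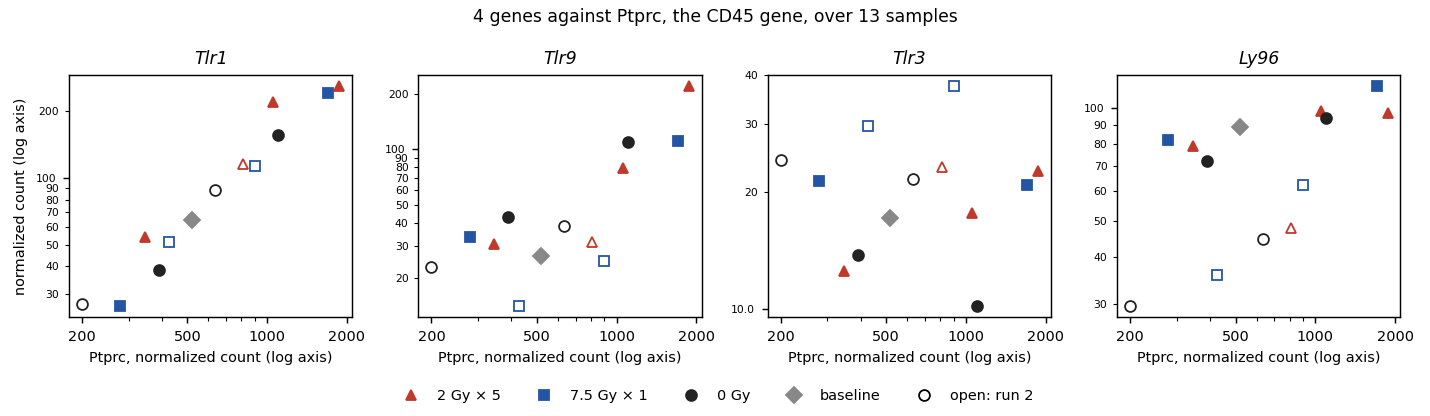
Normalized counts of Tlr1, Tlr9, Tlr3 and Ly96 against Ptprc in the 13 samples (log axes), with symbols for the groups and open symbols for run 2. Tlr1 follows Ptprc over its range of 200 to 1873 (r = 0.98), Tlr3 does not (r = 0.02), and the open symbols of Ly96 lie below all filled ones.

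Few genes downstream of the receptors passed between regimens. Of 16 adaptors and kinases on the panel, 0 passed the edgeR test in any regimen contrast, and in 2 Gy × 5 against 0 Gy the adaptor Myd88 had 0.25 ± 0.22 and the kinase Syk 0.77 ± 0.26 (adjusted p = 0.12 by edgeR). Of 9 transcription factors 1 passed: Irf7, the interferon regulatory factor activated downstream of the endosomal receptors, was higher after 7.5 Gy × 1 than after 0 Gy by 1.64 ± 0.32 (adjusted p = 0.031 by edgeR), and had 1.49 ± 0.33 after 2 Gy × 5 (adjusted p = 0.055). The call after 7.5 Gy × 1 was lost by limma (adjusted p = 0.084), on the housekeeping scale (0.083) and without T7, T14 or T21 (0.18, 0.29 and 0.13). Of 10 brakes such as Tnfaip3 and Socs1, and of 19 output cytokines and enzymes tested, 0 passed between regimens. Of the 13 other receptors and accessory proteins listed, Cd36, a co-receptor of TLR2, was tested and had -0.48 ± 0.29 after 2 Gy × 5 against 0 Gy (adjusted p = 0.42 by edgeR).

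At T7 against T2 members of these lists moved in both directions by edgeR, as did genes overall (27.2% rose and 26% fell). Of the 16 adaptors and kinases 3 rose (Btk, Irak2 and Syk) and 4 fell (Chuk, Ikbkg, Irak1 and Mapk14), with Syk at 1.18 ± 0.30 and Chuk, a kinase of the IkB kinase complex, at -1.05 ± 0.24. Of the transcription factors 2 rose, Irf8 by 1.72 ± 0.29 and Irf5 by 1.60 ± 0.33, while 5 fell, all but Irf3 being NF-kB subunits (Nfkb1, Nfkb2, Rela and Relb). Of the outputs 3 rose, with Nos2 at 1.59 ± 0.49, and 6 fell, with Il10 at -1.75 ± 0.34 and Il6 at -1.61 ± 0.31, and of the brakes 0 rose and 3 fell. On the housekeeping scale most of the falls were absent: 8 adaptors and kinases, 4 transcription factors, 2 brakes and 6 outputs rose, and Il6 was the 1 gene of these lists that fell, beside the 183 genes that rose and 21 that fell in all. This step has the same run limit as above.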

How the data were processed

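RNA of CD45+ cells from 13 tumor samples was counted on an nCounter mouse immunology panel (561 genes, 14 of them housekeeping). The authors deposited raw counts per probe and normalized values. In the deposited normalized signal, each sample is multiplied so that the geometric mean of the housekeeping probes is 789, and values under the geometric mean of 8 negative probes are set to it. This was read from the values, and 7111 of 7111 were rebuilt within 0.02 units or 0.1%. A deposited column with the percent of samples above a threshold of the authors was not used. The software that wrote the files is not given in the sources used here. Housekeeping scaling does not correct for the leukocyte share of a sample, and the part of that share in these values was not tested.

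Background was the mean plus 2 SD of the negative probes, and 415 genes with a mean count above 13.1 were kept. Of the panel, 549 accessions matched a RefSeq symbol. Folds were taken from normalized values with exact 95% intervals of the raw count ratio, which cover counting error only. A fold with 1 sample at background was set against that sample's threshold and is a bound. Tests used edgeR 4.0.16 on raw counts (TMM, quasi-likelihood, phase plus group, 12 samples, Benjamini-Hochberg over 415 genes, threshold 0.05), with DESeq2 1.42.0 and limma 3.58.1 as alternatives in R 4.3.3 and Python 3.11.15. All were tested on simulated data. P-values measure spread between phases or groups, not between animals. Alternatives were other scalings, background subtraction, a pseudocount of 20, no filter, and leaving out a phase, a group or the 2 Gy × 5 sample of T14. The scalings for lower calls and for the 2 regimens compared sample by sample were added after seeing the data. All 10 members were tested and counted in every comparison, and those called or farthest apart were named, with their most correlated genes (3 each, and the first after subtraction of run means), and from the pathway lists genes passing a regimen contrast and up to 5 others. The members and lists were chosen with earlier results of these data known.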

Additional observations from a re-analysis of the deposited data

Results flagged for a closer look

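Cd14 at T2 lay on opposite sides of the 0 Gy sample after the 2 regimens, beyond counting error on each side. The log2 fold change was 0.52 after 2 Gy × 5 (1748 raw counts) and -0.98 after 7.5 Gy × 1 (504 raw counts), against 552 raw counts in the 0 Gy sample, and all 3 samples were read in run 3. The difference at T2 has 1 sample a side and was not tested. Over the 4 phases Cd14 differed between 2 Gy × 5 samples and 7.5 Gy × 1 samples by 0.32 ± 0.32 on the log2 scale (SE, adjusted p = 0.84 by edgeR).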

How the results depend on the processing

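No pairing by animal was possible because each condition has 1 sample. Groups were matched by phase, as a term of the fits and in the sign-flip permutation over the 4 phases. Folds of low genes (Tlr5, Tlr3) rest on few counts, and phases or groups stand in for replicates.

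Scaling moved most member counts, and the counts of all genes with them. Values below follow the order median of ratios, total counts and pan-leukocyte genes unless named, with the housekeeping count last and the shares of all genes beside them. Members at least 2-fold above 0 Gy after 2 Gy × 5 were 0, 0 and 0 at T7 (5.78%, 5.78% and 2.41% of genes, housekeeping 2), 1, 0 and 0 at T14 (9.16%, 3.86% and 2.65%, housekeeping 5) and 3, 3 and 0 at T21 (12.3%, 11.8% and 1.93%, housekeeping 5). After 7.5 Gy × 1 they were 1, 1 and 0 at T21 (6.02%, 5.06% and 0.482%, housekeeping 2), and the pan-leukocyte scale gave 1 at T2 (28.9%, housekeeping 0). A pseudocount of 20 gave 0 and 3 after 2 Gy × 5 at T7 and T14 (11.1% and 10.8%) and 1 after 7.5 Gy × 1 at T21 (8.19%), and background subtraction gave 1 at T14 and 5 at T21 after 7.5 Gy × 1 (16.1% and 18.3%).

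Above baseline at T7 they were 3, 3 and 1 after 2 Gy × 5 (21%, 15.7% and 3.37%, housekeeping 8), 3, 1 and 0 after 7.5 Gy × 1 (17.8%, 10.1% and 5.3%, housekeeping 8) and 2, 1 and 1 after 0 Gy (12.8%, 9.16% and 6.02%, housekeeping 5). At T14 total counts and the pan-leukocyte genes gave 1 and 0 after 2 Gy × 5 (7.47% and 6.02%, housekeeping 6), the 3 scales gave 3, 2 and 0 after 7.5 Gy × 1 (14.7%, 13.5% and 8.67%, housekeeping 5), and the pseudocount gave 2 after 7.5 Gy × 1 (16.4%) and 1 after 0 Gy (9.88%, housekeeping 2). At T21 total counts and the pan-leukocyte genes gave 1 and 1 after 2 Gy × 5 (11.6% and 13.3%, housekeeping 2), and the median of ratios and the pan-leukocyte genes gave 3 and 3 after 7.5 Gy × 1 (14% and 14.2%, housekeeping 1) and 1 and 4 after 0 Gy (12.3% and 30.6%, housekeeping 0). Background subtraction gave 2 after 7.5 Gy × 1 at T21 (10.1%), and the pan-leukocyte scale gave 3 at T2 (41.9%, housekeeping 0).

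For 2 Gy × 5 above 7.5 Gy × 1, an alternative added after seeing the data, the pan-leukocyte scale gave 0 and the pseudocount 2 at T2 (5.78% and 9.64%, housekeeping 4). At T7 the 3 scales and background subtraction gave 1 each (2.41%, 3.61%, 0.964% and 2.17%, housekeeping 0). At T21 the 3 scales and the pseudocount gave 0 each (3.37%, 3.61%, 1.69% and 6.27%, housekeeping 3), and at T14 the pseudocount gave 0 in place of 1 lower (5.78%). Lower calls, added likewise, were 0 on the pan-leukocyte scale and with the pseudocount and 2 by total counts for 7.5 Gy × 1 against 0 Gy at T2 (2.41%, 7.23% and 20%, housekeeping 1). Against baseline they were 2, 0 and 2 by the median of ratios, the pan-leukocyte genes and the pseudocount after 7.5 Gy × 1 at T2 (15.9%, 2.41% and 14%, housekeeping 4), 0, 0 and 0 by the same after 7.5 Gy × 1 at T21 (14.9%, 14.2% and 15.4%, housekeeping 1) with 2 by background subtraction (28.9%), and 0 and 0 by the median of ratios and the pan-leukocyte genes after 0 Gy at T21 (11.3% and 4.58%, housekeeping 4). From T7 to T14 after 2 Gy × 5 they were 1, 0 and 1 by the median of ratios, the pan-leukocyte genes and the pseudocount (6.99%, 3.61% and 13%, housekeeping 2). From T14 to T21 they were 1, 1 and 0, and 1 with the pseudocount, after 7.5 Gy × 1 (12%, 17.8%, 5.54% and 18.3%, housekeeping 2), and 3 and 0 by the median of ratios and the pan-leukocyte genes after 0 Gy (12.5% and 0.964%, housekeeping 5). In some comparisons where the housekeeping scale called 0 members lower, the pan-leukocyte scale called some. Against 0 Gy at T14 and T21 these were 1 and 2 after 2 Gy × 5 (16.6% and 37.6%). After 7.5 Gy × 1 they were 1 and 1 (4.58% and 19.8%). Against baseline at T7 they were 2 after 2 Gy × 5 (47.2%) and 2 after 7.5 Gy × 1 (42.4%). At T14 they were 1 and 1 after 7.5 Gy × 1 and 0 Gy (23.9% and 15.7%), and at T21 1 after 2 Gy × 5 (17.8%).

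The pan-leukocyte scale shifts all genes of a sample alike, for example the median of all genes for 2 Gy × 5 against 0 Gy at T21, which was -0.83 on it and 0.71 on the housekeeping scale. Of the member fold changes 36 of 80 against 0 Gy and 31 of 120 against baseline changed sign on it. Among those called on the housekeeping scale, 2 of 15 and 8 of 46 did: Tlr8 (-0.14) and Ly86 (-0.02) for 2 Gy × 5 against 0 Gy at T21, Tlr4 (-0.11), Tlr8 (-0.13), Cd14 (-0.22) and Ly86 (-0.24) for 2 Gy × 5 at T7 against baseline, Tlr2 (-0.03), Tlr8 (-0.04) and Ly86 (-0.10) for 7.5 Gy × 1 at T7 against baseline, and Tlr1 (0.02) for 0 Gy at T21 against baseline.

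Members above 0 Gy at all phases, with alternatives chosen after seeing the data, numbered 3, 3 and 0 on the 3 scales after 2 Gy × 5 (15.2%, 7.47% and 3.61% of genes, housekeeping 7) and 1, 0 and 0 after 7.5 Gy × 1 (9.4%, 6.27% and 4.82%, housekeeping 3). For 2 Gy × 5 above 7.5 Gy × 1 they numbered 3 by the median of ratios (8.67%), 3 by total counts (7.23%) and 2 without T14 (16.4%, housekeeping 1).

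Of genes called over the 415, 2 Gy × 5 against 0 Gy had 0 in edgeR, 40 in DESeq2, 10 without the filter and 0 to 3 with a phase left out. For 7.5 Gy × 1 against 0 Gy these were 5 in edgeR, 15 in DESeq2, 0 in limma, 0 on the housekeeping scale, 2 without the 2 Gy × 5 sample of T14 and 0 to 3 with a phase left out, and between regimens DESeq2 called 1. T7 against T2 had 221, and 95 to 202 with a group left out. T14 against T7 had 36, 63 in DESeq2 and 0 to 21 with a group left out. T21 against T14 had 23, 97 in DESeq2, 64 in limma, 56 on the housekeeping scale, 6 without the 2 Gy × 5 sample of T14 and 0 to 21 with a group left out. The cause of these differences was not tested.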
